A study of Mus musculus with 24 samples.

Results

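The 9 genes described here encode components and receptors of the complement system: C1qa, C1qb, C1qc, C2, C3, C4b, Cfb, C3ar1 and C5ar1. They were taken by name from the 54532 genes of the count tables, after the Ensembl identifiers had been matched to symbols, and all 9 were found once. RNA of the left gastrocnemius, a calf muscle, was sequenced in 24 samples from WT C57/BL6 mice, and the deposited values are read counts per gene. The samples form 6 groups of 4: control, sedentary pain and active pain animals of each sex, and the labels record 24 hr as the time for each sample. Control mice were given 2 injections of 20 µl saline at pH 7.2 ± 0.1 into the muscle, 5 days apart. Sedentary pain mice were given 2 injections at pH 5.0 ± 0.1, of equal volume and spacing, and the second followed straight after 6 min of contraction evoked electrically in the muscle. Active pain mice had access to running wheels for 8 weeks before the pain procedure. Control mice had neither acid nor contraction, and no group combined running with saline, so the effects of acid, contraction and running alone cannot be told apart. Ages, and whether any sample pools animals, are not given in the sources used here. The p-values therefore measure the spread between these samples.

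Complement is a set of plasma and cell surface proteins that marks targets for removal and calls in leukocytes. C1q, a hexamer of trimers built from A, B and C chains, starts the classical pathway by binding immune complexes, dying cells and debris. C4b and C2 then form an enzyme that cuts C3, and factor B, encoded by Cfb, does the corresponding work in the alternative pathway. The C3a and C5a fragments released on the way act on the receptors C3ar1 and C5ar1. Macrophages are the main source of C1q in most tissues, whereas the liver makes most of the C3 in plasma. In injured muscle, infiltrating leukocytes and resident cells both express complement genes.

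The 3 C1q genes lie in a row on the minus strand of chromosome 4 in GENCODE M21 (GRCm38): C1qb at chr4:136880129-136886187, C1qc at chr4:136889804-136893065 and C1qa at chr4:136895917-136898803. The gaps between them are 3616 and 2851 bases. Cfb at chr17:34856374-34862518 and C2 at chr17:34862604-34898265, both on the minus strand, are 85 bases apart. C4b lies at chr17:34728380-34743882 and C3 at chr17:57203970-57228136. C3ar1 is at chr6:122847138-122856161 and C5ar1 at chr7:16246743-16259540. These 4 genes are on the minus strand as well. The sources used here do not say whether reads were counted by strand. C4b has a near copy, C4a, to which 72 counts in all were assigned over the 24 libraries, so reads of the pair could have been split or lost between them. RefSeq promoter windows (GRCm38.p6; 250 bases before to 50 after the gene's start) were at hand for 5 of the 9 genes: C1qb, C1qc, C3, C3ar1 and C5ar1. The upstream bases of C1qb and C1qc are shown because these neighbours ran nearly in parallel in the libraries, and those of C3 because its levels took a different course. Each is given 5′ to 3′ on the gene's minus strand, without bases inside the annotated gene. The C1qb bases are chr4:136886201-136886450, those of C1qc chr4:136893066-136893164 and those of C3 chr17:57228137-57228386. Capitals mark GAGGAA (the core of a PU.1 box) or its reverse complement in the C1q genes, and TTGCNNAA (a C/EBP word) in C3.
C1qb: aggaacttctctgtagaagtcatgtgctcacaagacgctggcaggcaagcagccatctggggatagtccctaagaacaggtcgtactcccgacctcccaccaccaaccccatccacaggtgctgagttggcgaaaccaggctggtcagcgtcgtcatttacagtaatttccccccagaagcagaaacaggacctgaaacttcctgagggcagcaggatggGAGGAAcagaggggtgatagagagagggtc
C1qc: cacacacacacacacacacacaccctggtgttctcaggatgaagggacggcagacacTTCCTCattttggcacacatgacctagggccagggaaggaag
C3: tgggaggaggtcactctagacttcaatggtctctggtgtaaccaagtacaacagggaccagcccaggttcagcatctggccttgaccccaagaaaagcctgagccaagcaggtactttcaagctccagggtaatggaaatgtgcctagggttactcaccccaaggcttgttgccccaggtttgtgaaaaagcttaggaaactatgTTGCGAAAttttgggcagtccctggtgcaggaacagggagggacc
GAGGAA began 30 bases before the RefSeq start in C1qb and stood on the opposite strand 193 bases before it in C1qc. On either strand it was found in 28.3% of 32851 promoter windows of 300 bases. TTGCNNAA began 45 bases before the start of C3 and was found in 10.8% of the windows. TATAAA was found in the windows of C3 and C3ar1 and in 13.6% of the whole set. TTCNNNGAA (a GAS element), found in 8.3% of the windows, was in none of the 5, with both strands searched throughout. A match of letters is a description and not a binding site.

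Libraries held 17612139 to 34039699 counts. Markers of skeletal muscle fibres, 9 genes, summed to 100142 to 227075 CPM per library (counts per 1000000 counts of the library, scaled by the trimmed mean of M-values). Hepatocyte markers, of which 6 were listed, summed to at most 5.23 CPM. Female sedentary pain replicates 3 and 4 stood apart, with the highest sums of 12 macrophage and monocyte markers (3698 and 4850 CPM, against 61.7 to 969 in the other 22 libraries) and of 6 T and NK cell markers (42.2 and 76.3 CPM, against at most 3.91). They also had the highest sums of 4 B cell markers (5.84 and 7.56 CPM, against at most 1.45). Their muscle fibre sums were the lowest (109575 and 100142 CPM, against at least 131089). Neutrophil markers, 7 genes, summed to 300.3 CPM in male sedentary pain replicate 1 and 255 CPM in female sedentary pain replicate 2. In each of the 3 female groups replicates 3 and 4 had higher macrophage sums than replicates 1 and 2. Members' counts within each of these pairs of replicates are given beside the results of sedentary pain females against controls and against active pain females. What the replicate numbers mark is not given in the sources used here. In whole tissue, fewer cells of a type and less RNA per cell cannot be told apart.

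In females, 8 of the 9 complement genes were higher in sedentary pain than in controls, and the ninth, C2, did not pass. Each sex was tested in edgeR (quasi-likelihood, 12 libraries) with p-values adjusted over all genes tested (Benjamini-Hochberg, threshold 0.05). By that rule 19.6% of 14511 genes were higher in this comparison. The 9 genes had a median log2 fold change of 3.83, against -0.02 over all genes tested. Without female sedentary pain replicates 3 and 4, which was tried once the data had been seen, the C1q chains and both receptors still passed and C3, C4b and Cfb did not (7.51% of genes higher in that fit). With replicates 1 and 2 of each group only, 5 members passed (1.56% of genes higher), and with replicates 3 and 4 only, all 9 (16.2% higher). The macrophage list moved with them: 11 of its 12 genes were higher in female sedentary pain, the exception being Cd163, and none of the 12 was at 0 throughout any group. The part of these markers in the results was not tested.

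All 3 chains of C1q rose in female sedentary pain, each with a log2 fold change between 3.83 and 4.17. C1qa, the A chain, was at 17.6, 14.1, 28.6 and 32.5 CPM in female control replicates 1 to 4, at 50.8, 80.5, 403 and 813 CPM in female sedentary pain, and at 47.8, 37.8, 68.3 and 57.7 CPM in female active pain. Female sedentary pain replicates 3 and 4 were the highest of the 24 libraries, and even the lowest library of that group lay above each control. C1qb, the B chain, was at 16.4, 12.7, 28.7 and 34.0 CPM in female controls, 66.7, 108, 523 and 977 CPM in sedentary pain and 47.0, 44.4, 85.05 and 65.5 CPM in active pain. C1qc, the C chain, was at 13.5, 10.01, 23.9 and 25.3 CPM, then 39.7, 61.7, 328 and 620.2 CPM, then 38.3, 32.0, 57.3 and 46.8 CPM in these 3 groups. The chains ordered the libraries alike in controls and in sedentary pain, and in sedentary pain none of the 3 overlapped the controls. C1qa rose by a log2 fold change of 3.84 ± 0.76 (SE) in female sedentary pain, a 14.3-fold difference (edgeR, adjusted p = 0.00509). C1qb rose by 4.17 ± 0.77 on the log2 scale (edgeR, adjusted p = 0.00400) and C1qc by 3.83 ± 0.76 (edgeR, adjusted p = 0.00527). Without female sedentary pain replicates 3 and 4, the log2 fold changes were 1.49 for C1qa (edgeR, adjusted p = 0.0255), 1.92 for C1qb (adjusted p = 0.0184) and 1.46 for C1qc (adjusted p = 0.0326). The calls held, with smaller changes. With 1 surrogate variable in the fit, the 3 chains no longer passed (log2 fold changes of 0.67, 1.07 and 0.67).

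**Figure D1:**
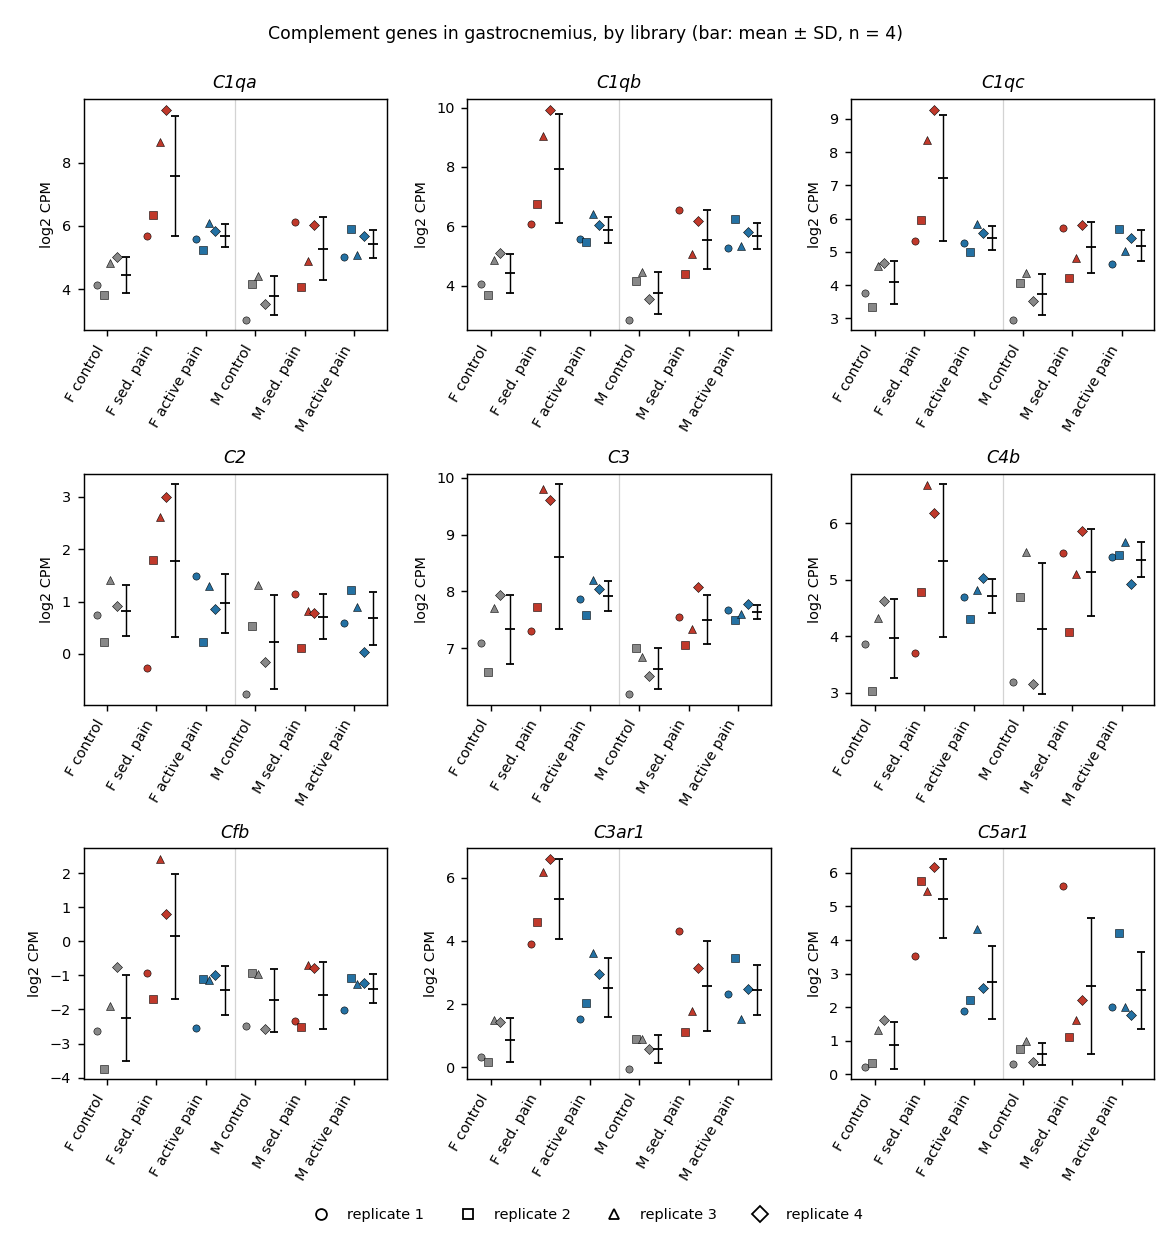
Levels of the 9 complement genes in each library as log2 CPM (prior count 2), by group, with females left and males right of the grey line and 1 marker shape per replicate; bars are mean ± SD (n = 4). Female sedentary pain replicates 3 and 4 have the highest C1q values, whereas the C5ar1 values of sedentary pain males hold 1 high library, replicate 1 at 48.5 CPM.

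C3, the central component that both pathways cut, was the member with the highest level per exon length in controls. It was at 137, 96.0, 208 and 245 CPM in female controls, at 157, 213, 890.1 and 779.8 CPM in the sedentary pain females and at 233, 192, 295 and 265 CPM in the active pain females. In sedentary pain replicates 3 and 4 were high, and replicates 1 and 2 lay within the range of the controls. C3 rose 2.93-fold in female sedentary pain (log2 fold change 1.55 ± 0.51 SE, edgeR adjusted p = 0.0368). C4b, the C4 of the classical and lectin pathways, was at 14.5, 8.08, 20.0 and 24.5 CPM in controls, 12.9, 27.4, 102 and 72.6 CPM in sedentary pain and 25.7, 19.8, 28.2 and 32.5 CPM in active pain. Its groups overlapped through sedentary pain replicate 1. C4b rose by 1.65 ± 0.54 on the log2 scale (edgeR, adjusted p = 0.0354). Without sedentary pain replicates 3 and 4, the log2 fold changes were 0.10 for C3 (edgeR, adjusted p = 0.844) and 0.25 for C4b (adjusted p = 0.671). Leaving out female sedentary pain replicate 3 alone also ended both calls (log2 fold changes of 1.17 for each gene, edgeR adjusted p = 0.0890 and 0.0911). So did leaving out replicate 4 of that group, or replicate 1, 2 or 3 of the female controls. With 1 surrogate variable in the fit both directions turned, with log2 fold changes of -0.34 for C3 and -0.34 for C4b.

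C2, the protease that joins C4b in the classical enzyme, and Cfb, its counterpart in the alternative pathway, were the members with the fewest counts. C2 was at 1.60, 1.09, 2.58 and 1.80 CPM in female controls, 0.756, 3.39, 6.03 and 7.88 CPM in sedentary pain and 2.74, 1.09, 2.39 and 1.73 CPM in active pain. Sedentary pain replicate 1 was the lowest of the 12 female libraries for C2, and the other 3 of its group were the highest. The log2 fold change against controls was 1.33 ± 0.55 (SE, edgeR adjusted p = 0.0784). Cfb was at 0.0867, 0, 0.195 and 0.520 CPM in female controls, 0.454, 0.234, 5.29 and 1.66 CPM in sedentary pain and 0.0980, 0.388, 0.385 and 0.426 CPM in active pain. The control value of 0 stands for no count, and the highest Cfb value stands for 163 counts. Cfb rose by 3.14 ± 0.98 on the log2 scale (edgeR, adjusted p = 0.0318), and without sedentary pain replicates 3 and 4 its log2 fold change was 0.71 (edgeR, adjusted p = 0.6004). It also lost its call without sedentary pain replicate 3 (log2 fold change 1.90) or replicate 4 (3.23) alone, and without female control replicate 1, 2 or 3.

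The receptors had the largest fold changes of the 9 genes in this comparison. C3ar1, the receptor for C3a, was at 1.17, 1.05, 2.73 and 2.598 CPM in female controls, at 15.1, 24.1, 72.8 and 97.0 CPM in sedentary pain and at 2.79, 3.99, 12.1 and 7.601 CPM in active pain. The 3 groups did not overlap, with controls lowest and sedentary pain highest. C3ar1 rose 27.0-fold in sedentary pain (log2 fold change 4.75 ± 0.70 SE, edgeR adjusted p = 0.00260). C5ar1, the receptor for C5a and abundant on neutrophils and monocytes, was at 1.08, 1.18, 2.42 and 2.97 CPM in controls, 11.3, 53.9, 44.3 and 72.7 CPM in sedentary pain and 3.63, 4.56, 20.0 and 5.84 CPM in active pain. Sedentary pain lay above each control, and active pain replicate 3 lay within the range of sedentary pain. C5ar1 rose 23.2-fold (log2 fold change 4.53 ± 0.71 SE, edgeR adjusted p = 0.00260). Without female sedentary pain replicates 3 and 4, the log2 fold changes were 3.35 for C3ar1 (edgeR, adjusted p = 0.0135) and 4.06 for C5ar1 (adjusted p = 0.0173). With 1 surrogate variable C3ar1 passed (2.44, adjusted p = 0.0339) and C5ar1 did not (2.28, adjusted p = 0.0638). The C1q chains and the receptors were the 5 members whose groups did not overlap, against 15.3% of all genes in that direction. Neutrophil marker sums were 0.898 to 3.76 CPM in female controls and 21.4, 255, 39.0 and 57.3 CPM in female sedentary pain replicates 1 to 4. Their part in the C5ar1 values was not tested.

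In females that had run on wheels, the C1q chains and both receptors were lower after the pain procedure than in sedentary animals. These 5 of the 9 genes passed, where 9.41% of all genes tested were lower. C1qa was lower by a log2 fold change of -2.65 ± 0.72 (SE, edgeR adjusted p = 0.0381), C1qb by -2.77 ± 0.72 (adjusted p = 0.0349) and C1qc by -2.57 ± 0.72 (adjusted p = 0.0421). C3ar1 was lower by -2.95 ± 0.64 (edgeR, adjusted p = 0.0328) and C5ar1 by -2.40 ± 0.63 (adjusted p = 0.0358). C3ar1 was the single member whose groups did not overlap, against 6.37% of all genes in that direction. C3 (-1.03, edgeR adjusted p = 0.175), C4b (-0.998, adjusted p = 0.205), C2 (-1.17, adjusted p = 0.162) and Cfb (-2.51, adjusted p = 0.0930) did not pass. The calls were lost in several fits with fewer samples. Without the 2 sedentary libraries that stand apart no member passed in edgeR (0.0% of all genes lower), and the log2 fold changes were -0.30 for C1qa, -0.52 for C1qb, -0.21 for C1qc, -1.55 for C3ar1 and -1.92 for C5ar1, while C3 and C4b turned to 0.42 and 0.41. No member passed either without female active pain replicate 1, 2 or 4, or without female sedentary pain replicate 3 or 4, whereas 3 passed without female active pain replicate 3 (8.86% of genes lower) or female control replicate 4 (6.51%), and 9 without sedentary pain replicate 1 (19.2%). Without both female control replicates 3 and 4, or in a fit of only the 8 samples compared, 0 passed. C5ar1 lost its call without female sedentary pain replicate 2 (-2.34, edgeR adjusted p = 0.0513). With 1 surrogate variable no member passed, and C1qa and C1qc turned to 0.12 and 0.21. With replicates 1 and 2 of each group only, 0 members passed, and with replicates 3 and 4 only, 9 (13.2% of genes lower). In the fits named here in which 0 members passed, 0.0% of all genes were lower, except that 3 genes (0.0204%) were without sedentary pain replicate 3. Macrophage marker sums were 193, 240, 502 and 405 CPM in active pain, against 465, 937, 3698 and 4850 CPM in sedentary pain, and 8 of the 12 genes were called lower. T and NK cell marker sums were 0.784 to 1.61 CPM in active pain and 3.03 to 76.3 CPM in sedentary pain, with 2 of 2 genes tested called lower. Of the neutrophil markers 0 of 6 tested were called. The part of these markers in the difference was not tested.

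Active pain females were also set against female controls. No member passed in edgeR, as for all 14511 genes (0.0% called). At an unadjusted p under 0.05 there were 2, C3ar1 and C5ar1, where 7.03% of genes met that level, and DESeq2 called 1, C5ar1 (log2 fold change 2.15, DESeq2 adjusted p = 0.0432), and 0.868% of genes. The C1q chains and the receptors lay above each control in every active pain library, a pattern found in 3.6% of genes. Macrophage marker sums were 193 to 502 CPM in active pain and 80.0 to 193 CPM in controls, and neutrophil sums 4.90 to 112 and 0.898 to 3.76 CPM. Of these lists 7 of 12 and 6 of 6 genes tested had an unadjusted p under 0.05, and their part in the members' values was not tested. The log2 fold changes in edgeR were 1.19 ± 0.69 (SE) for C1qa, 1.40 ± 0.69 for C1qb, 1.26 ± 0.70 for C1qc, 1.80 ± 0.64 for C3ar1 and 2.13 ± 0.66 for C5ar1. Those of C2, C3, C4b and Cfb were 0.16, 0.52, 0.66 and 0.63, with overlapping groups. This comparison and the sedentary one share the control libraries.

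**Figure D2:**
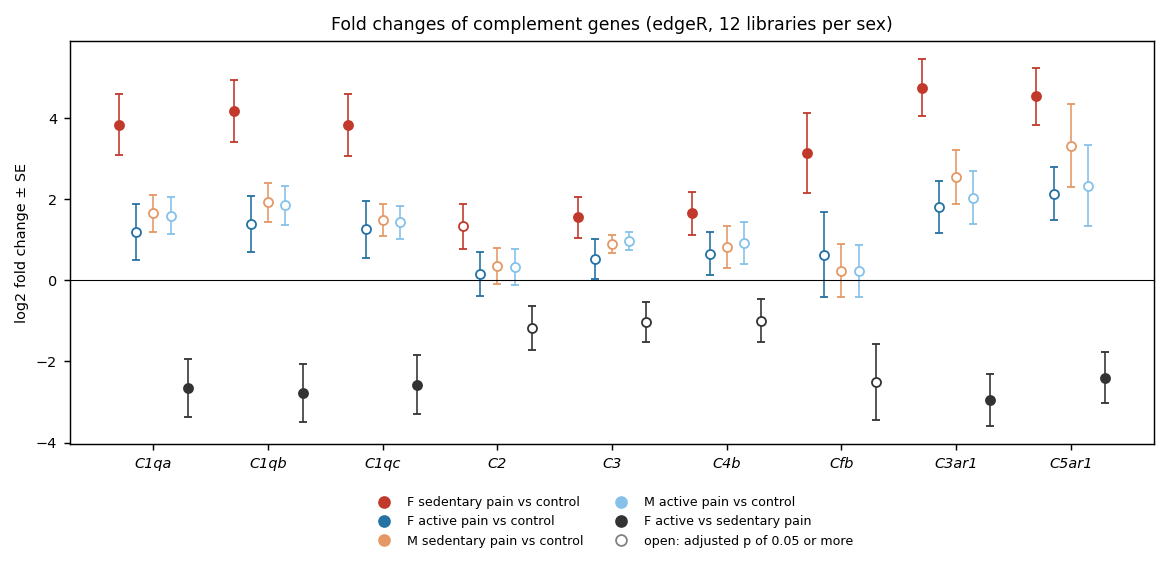
Log2 fold changes (± SE, edgeR) of the 9 complement genes in 5 comparisons, with filled points where the adjusted p was under 0.05 and open points otherwise. Filled points are 8 of 9 genes in female sedentary pain against control, 0.0% of genes being called in the 3 comparisons of the other pain groups with control, and 5 of 9 in female active against sedentary pain.

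In males the log2 fold changes of all 9 genes against controls were above 0 in both pain groups, those of C2 and Cfb close to it and below it under some alternatives, and none passed the test in edgeR. In sedentary pain against control 0.0% of 14404 genes were called. The C1q chains, C3 and both receptors, 6 genes, had an unadjusted p under 0.05, where 8.84% of genes met that level, and DESeq2 called 5, the C1q chains, C3 and C3ar1, and 1.8% of genes, giving no adjusted p for C5ar1. C1qa was at 8.16, 17.8, 21.3 and 11.6 CPM in male controls, 70.1, 16.6, 29.6 and 65.8 CPM in male sedentary pain and 32.6, 59.9, 33.8 and 50.9 CPM in male active pain. Sedentary pain replicates 1 and 4 were high and replicate 2 lay within the controls, whereas each active pain library lay above them. Macrophage marker sums were 61.7 to 124 CPM in male controls, 969, 127, 194 and 416 CPM in sedentary pain and 224, 525, 185 and 342 CPM in active pain. In each pain group 11 of the 12 macrophage genes had an unadjusted p under 0.05 against control, and their part in the C1q values was not tested. The C1qa means were 14.7 ± 5.92, 45.5 ± 26.5 and 44.3 ± 13.3 CPM (SD, n = 4) in these groups. C1qb, which took a similar course, was at 7.13, 17.9, 21.8 and 11.6 CPM, then 93.4, 21.1, 33.1 and 72.2 CPM, then 38.6, 75.0, 40.4 and 56.5 CPM. C1qc was at 7.71, 16.5, 20.6 and 11.4 CPM, then 52.1, 18.4, 28.2 and 56.0 CPM, then 24.6, 51.0, 32.6 and 42.8 CPM. The log2 fold changes in sedentary pain were 1.65 ± 0.45 (SE) for C1qa, 1.93 ± 0.48 for C1qb and 1.48 ± 0.40 for C1qc (edgeR, adjusted p = 0.296 for each). In active pain they were 1.59 ± 0.45, 1.85 ± 0.48 and 1.43 ± 0.40 (edgeR, adjusted p = 0.478, 0.465 and 0.478).

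C3 in males was at 72.8, 129, 114 and 91.3 CPM in controls, 186, 133, 161 and 271 CPM in sedentary pain and 205, 181, 194 and 219 CPM in active pain. Both pain groups lay above each control. The log2 fold changes were 0.90 ± 0.23 (SE, edgeR adjusted p = 0.296) and 0.98 ± 0.23 (adjusted p = 0.465). C4b was at 9.08, 25.7, 44.9 and 8.78 CPM in controls, 44.3, 16.7, 34.4 and 58.3 CPM in sedentary pain and 42.1, 43.4, 50.5 and 30.2 CPM in active pain, so its groups overlapped. C2 ranged from 0.512 to 2.41 CPM and Cfb from 0.0944 to 0.549 CPM over the 12 male libraries, and the groups of both overlapped. At this depth a Cfb value in males rested on 3 to 14 counts.

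The receptors varied widely between the male libraries of a pain group. C3ar1 was at 0.887, 1.78, 1.80 and 1.42 CPM in controls, 19.8, 2.08, 3.38 and 8.70 CPM in sedentary pain and 4.87, 11.0, 2.81 and 5.50 CPM in active pain. Both pain groups lay above each control. The log2 fold changes were 2.54 ± 0.66 (SE, edgeR adjusted p = 0.296) and 2.04 ± 0.66 (adjusted p = 0.486). C5ar1 was at 1.16, 1.61, 1.90 and 1.23 CPM in controls, 48.5, 2.11, 2.999 and 4.59 CPM in sedentary pain and 3.96, 18.5, 3.97 and 3.36 CPM in active pain. One library of each pain group was far above the other 3, sedentary replicate 1 and active replicate 2, and both groups lay above the controls. The log2 fold changes were 3.32 ± 1.02 (SE, edgeR adjusted p = 0.327) and 2.33 ± 0.995 (adjusted p = 0.634). Without sedentary pain replicate 1 the first was 1.15, and without active pain replicate 2 the second was 1.36. The change of C3ar1 in sedentary pain was 1.70 without replicate 1. Neutrophil marker sums were 300.3, 2.54, 2.28 and 2.69 CPM in male sedentary pain and 8.27, 78.8, 6.23 and 3.36 CPM in male active pain, high in these same 2 libraries, and their part in C5ar1 was not tested.

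In active pain against control, males had no member past the threshold in edgeR (0.0% of genes called). The C1q chains, C3 and both receptors had an unadjusted p under 0.05, 6 genes where 7.25% of all genes met that level, and DESeq2 called 4, the C1q chains and C3, and 0.791% of genes. These 6 genes also had groups that did not overlap, a pattern of 6.34% of genes. In sedentary pain that held for 3 members, C3, C3ar1 and C5ar1, against 3.95% of genes. Active and sedentary males were set against each other in the same way. No member passed in edgeR (0.0% of genes called), none had an unadjusted p under 0.05, a level met by 0.84% of genes, and DESeq2 called 0 of them and 0.0% of genes. The median log2 fold change of the 9 genes between these 2 male groups was -0.05, against -0.04 over all genes tested.

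Whether a change differed between the sexes was tested in a fit of all 24 libraries, as the male change minus the female change. For sedentary pain against control no member passed in edgeR (0.0% of 15103 genes called). The C1q chains, Cfb and C3ar1, 5 genes, had an unadjusted p under 0.05, a level met by 9.57% of genes, and DESeq2 called 0 (0.131% of genes). The differences were -2.23 ± 0.87 (log2, SE) for C1qa, -2.28 ± 0.88 for C1qb, -2.39 ± 0.85 for C1qc, -2.94 ± 1.25 for Cfb, -2.26 ± 0.95 for C3ar1 and -1.26 ± 1.22 for C5ar1 (edgeR, adjusted p = 0.434 to 0.760 over these genes). Without female sedentary pain replicates 3 and 4 the difference was 0.15 for C1qa and 0.00276 for C1qc. With replicates 3 and 4 of each group only, 5 members passed in this test (8.51% of genes called). For active against sedentary pain no member passed in edgeR (0.0% called), 4 had an unadjusted p under 0.05 (14.7% of genes) and DESeq2 called 0 (0.635% of genes). C1qa had a difference of 2.63 ± 0.87 and C3ar1 one of 2.49 ± 0.91 (log2, SE, edgeR adjusted p = 0.229 and 0.249). With female sedentary pain replicates 3 and 4 left out, the difference was 0.27 for C1qa and 1.07 for C3ar1 (edgeR, adjusted p = 0.907 and 0.884). Without male sedentary pain replicate 1, the library with the most neutrophil marker counts, 5 members passed in that test (14.1% of genes called), and C5ar1 had a difference of 3.62 (edgeR, adjusted p = 0.0240). Without female sedentary pain replicate 1, 3 passed (4.04% of genes called), and with replicates 3 and 4 of each group only, 5 (7.71%). For active pain against control no member passed in edgeR (0.0% called), 0 had an unadjusted p under 0.05 (2.03% of genes) and DESeq2 called 0 (0.0108% of genes). In male against female controls no member passed in edgeR, where 2.83% of genes were called. None had an unadjusted p under 0.05, a level met by 14.9% of genes, and DESeq2 called 0 (4.23% of genes).

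Levels of different members were set side by side per kilobase of exon. In female controls C3 was highest at 33.3 ± 13.1 CPM per kilobase (SD, n = 4), followed by C1qa at 22.3 ± 8.43, C1qb at 21.1 ± 9.21 and C1qc at 9.42 ± 3.94. Each of these 4 overlapped its neighbour. C4b at 2.95 ± 1.25 stood apart from both neighbours, and C5ar1, C2 and C3ar1 followed at 0.744 ± 0.362, 0.457 ± 0.159 and 0.439 ± 0.209, overlapping in turn. Cfb was lowest at 0.0709 ± 0.0805 CPM per kilobase. In female sedentary pain C1qb led at 385 ± 391 CPM per kilobase, with C1qa at 324 ± 341, C1qc at 136 ± 141 and C3 at 99.1 ± 73.6, each overlapping its neighbour. C5ar1 at 17.7 ± 9.99 and C3ar1 at 12.1 ± 9.10 then stood above C4b at 9.42 ± 7.18, the 3 overlapping in turn. In male controls C3 was first as well, at 19.8 ± 4.81 CPM per kilobase, and in both male pain groups C1qb was first, at 50.5 ± 31.0 and 48.4 ± 15.6.

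The ratio of C3 to C1qa shows the unequal change of these genes within libraries. The log2 ratio of CPM (prior count 2) was 2.96, 2.76, 2.86 and 2.91 in female controls, 1.63, 1.40, 1.14 and -0.06 in the sedentary pain females and 2.28, 2.35, 2.11 and 2.20 in female active pain. The 3 groups did not overlap. The mean log2 ratio differed from that of controls by -1.85 in sedentary pain and by -0.64 in active pain, and was higher by 1.21 in active than in sedentary pain. Each of these had p = 0.0286 in an exact two-sided permutation test, the smallest that 70 arrangements of 4 against 4 can give, and an adjusted p of 0.114 over 24 tests of ratios. In males the difference was -0.63 for sedentary pain (exact permutation p = 0.200) and -0.63 for active pain (exact permutation p = 0.0857). C1qa was also set against Csf1r, the receptor that macrophages need for growth and survival. The log2 ratio was 0.47 ± 0.19 (SD, n = 4) in female controls, 0.78 ± 0.26 in sedentary pain and 0.84 ± 0.12 in active pain. In males it was -0.10 ± 0.14, 0.46 ± 0.25 and 0.55 ± 0.09. Active pain females and both male pain groups lay above each control of their sex, by 0.38, 0.56 and 0.65 (exact permutation p = 0.0286 and adjusted p = 0.114 for each). The log2 ratio of C5ar1 to C3ar1 did not separate any pair of groups (exact permutation p from 0.457 to 1.0), nor did that of Cfb to C2 (exact permutation p from 0.229 to 0.771). None of the 24 tests passed after adjustment.

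**Figure D3:**
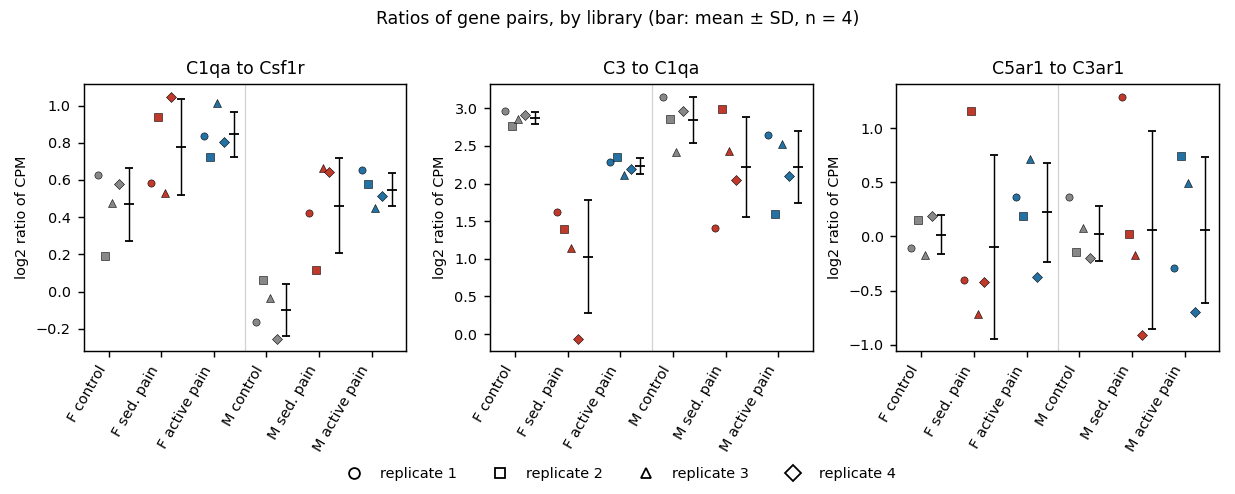
Log2 ratios of CPM of C1qa to Csf1r, C3 to C1qa and C5ar1 to C3ar1 in each library, by group, with mean ± SD bars (n = 4). The 3 female groups do not overlap in the C3 to C1qa ratio, which is lowest, at -0.06, in sedentary pain replicate 4.

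How closely the members ran in parallel was described by the SD over the 24 libraries of the log2 ratio of each pair, a small SD meaning a nearly constant ratio. The C1q chains were closest, with SDs of 0.157 for C1qa and C1qc, 0.182 for C1qa and C1qb and 0.252 for C1qb and C1qc. C3ar1 and C5ar1 had an SD of 0.557, C2 and C3 one of 0.524 and C3 and C4b one of 0.617. The receptors stood nearer to C1qb (0.498 for C3ar1 and 0.833 for C5ar1) than to C3 (1.20 and 1.40). Among 11150 genes whose mean log2 CPM reached 1, the non-members most like C1qa were Unc93b1, Pld4, Tbxas1, Ptpro and Hpse, with SDs of 0.268 to 0.346, against a median of 1.52 over the genes compared. Unc93b1 carries nucleic acid sensing Toll-like receptors to endosomes, and Tbxas1 is thromboxane synthase. Those most like C3 were Folr2, C1ra, Xdh, Lipa and Glb1 (0.269 to 0.367, median 0.895). C1ra encodes a protease of the C1 complex, Folr2 is a folate receptor of resident macrophages, and Lipa and Glb1 are lysosomal enzymes. Those most like C5ar1 were Slfn2, Coro1a, Alox5ap, Vav1 and Itgam (0.334 to 0.362, median 1.91). Itgam is the α chain of complement receptor 3, Alox5ap serves leukotriene synthesis and Vav1 is a signalling protein of blood cells.

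**Figure D4:**
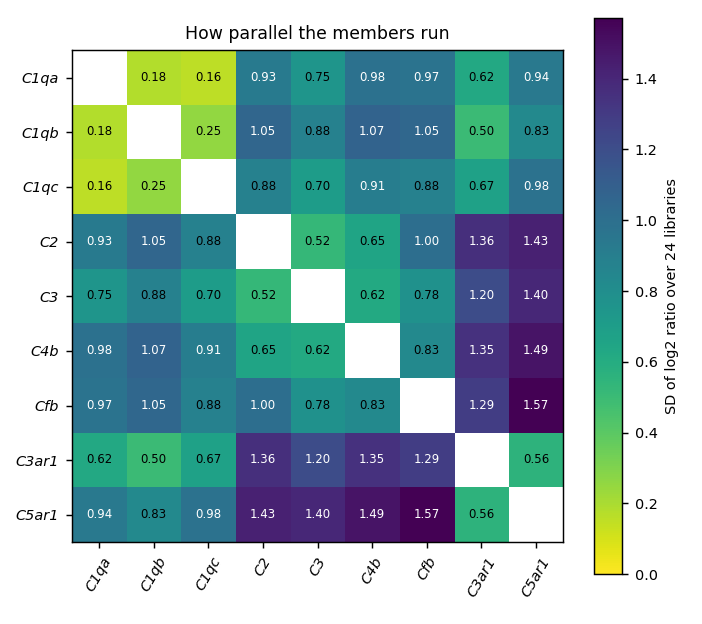
SD over 24 libraries of the log2 CPM ratio for each pair of the 9 complement genes, low values (yellow) meaning that the pair keeps a nearly constant ratio. The C1q chains form the block with the lowest values, 0.157 to 0.252, and C5ar1 with Cfb has the highest, 1.57.

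Of 43 other complement genes listed, 24 were tested in females. In sedentary pain against control 8 rose and 4 fell, where 19.6% of all genes tested were higher and 13.9% lower, and the median log2 fold change was -0.02 as over all genes. Of 8 other receptors listed 5 were tested, and 4 of these rose. Itgam (log2 fold change 5.03 ± 0.69 SE), Itgax (3.74 ± 0.80) and Itgb2 (4.90 ± 0.71), the chains of complement receptors 3 and 4, rose (edgeR, adjusted p = 0.00260, 0.00668 and 0.00260). Cd93, which was first described as a C1q receptor, rose by 0.80 ± 0.15 (edgeR, adjusted p = 0.00410). C1qbp, a mitochondrial protein that binds C1q, was at 0.05. Among the proteases C1ra, which C1q carries, rose by 1.71 ± 0.42 (edgeR, adjusted p = 0.0125), and Masp1, of the lectin pathway, fell by 0.96 ± 0.34 (adjusted p = 0.0463). Of the alternative pathway activators, Cfp (properdin, which stabilises the C3-cutting enzyme) rose by 3.88 ± 0.66 (edgeR, adjusted p = 0.00311). Cfd (factor D, an adipocyte protein that cuts factor B) fell by 2.74 ± 0.94 (edgeR, adjusted p = 0.0436). Cfd was at 229, 118, 2757 and 1488 CPM in female controls and 48.1, 233, 356 and 64.4 CPM in sedentary pain, and control replicates 3 and 4 also had the highest sums of 6 adipocyte markers (2925 and 1263 CPM, against 107 to 404 CPM in the other 22 libraries). The part of these markers in the Cfd value was not tested.

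Of 4 soluble inhibitors tested 2 rose, where 19.6% of all genes were higher. Of 5 membrane inhibitors tested 1 fell, where 13.9% of all genes were lower, and 0 of these 5 had a log2 fold change above 0. Serping1, the inhibitor of C1r and C1s, rose by 1.13 ± 0.32 on the log2 scale (edgeR, adjusted p = 0.0224), and Clu, a chaperone that blocks the membrane attack complex, rose by 1.45 ± 0.28 (adjusted p = 0.00477). Cd59a, which blocks that complex on cell surfaces, fell by 0.55 ± 0.20 (edgeR, adjusted p = 0.0480). Cr1l, a brake on C3 activation on rodent cell membranes, was at -0.09 and did not pass. C7, a terminal component, fell by 2.03 ± 0.66 (edgeR, adjusted p = 0.0359), with at most 35 counts in any female library. The 12 calls dropped to 7 without female sedentary pain replicate 4 (16.9% of all genes called), to 7 without female control replicates 3 and 4 (16.5%), and to 5 without female sedentary pain replicates 3 and 4 (9.59%), the last 2 being alternatives chosen after seeing the data. The 5 were Itgam (log2 fold change 4.07), Itgb2 (3.46), Cfp (2.46), Cd93 (0.62) and Clu (1.79). In that fit C1ra was at 0.50 and Serping1 at 0.22 (edgeR, adjusted p = 0.147 and 0.305), Itgax at 3.07 (adjusted p = 0.0538), Cfd at -3.04, C7 at -2.13, Masp1 at -0.79 and Cd59a at -0.44, and none of these 7 passed. Cfd had a log2 fold change of -0.02 (edgeR, adjusted p = 0.985) without female control replicates 3 and 4. In active against sedentary pain in females 4 of the 24 fell, against 9.41% of all genes tested: Cfp by 2.55, Itgam by 2.55, Itgb2 by 2.77 and Cd93 by 0.83 (edgeR, adjusted p = 0.0328 for each). With both female sedentary pain replicates 3 and 4 left out, the changes were -1.13, -1.58, -1.33 and -0.65, and 0 passed. This count was also 0 without female sedentary pain replicate 3 or 4 alone, or without female active pain replicate 1, 2 or 4. In active pain against control in females none of the 24 passed in edgeR, 6 had an unadjusted p under 0.05 (7.03% of all genes) and DESeq2 called 3 (0.868%). In males 26 were tested, and none passed in edgeR in either pain group against control. In sedentary pain 6 had an unadjusted p under 0.05 (8.84% of all genes) and DESeq2 called 4 (1.8%). In active pain these counts were 8 (7.25% of all genes) and 2 (0.791%).

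Between the sexes C7 stood out in controls, at 10.5, 9.76, 21.5 and 12.4 CPM in males and 1.04, 1.47, 0.508 and 0.825 CPM in females. The groups did not overlap, and C7 was higher in males by a log2 fold change of 3.82 ± 0.54 (SE, edgeR adjusted p = 0.000189). Masp1 was at 1.47, 1.05, 0.746 and 1.13 CPM in male controls and 2.6003, 3.41, 2.58 and 1.77 CPM in female controls, lower in males by a log2 fold change of -1.23 ± 0.30 (edgeR, adjusted p = 0.0268). These 2 of 26 were the listed genes that passed between the controls, where 2.83% of all genes were called, and 1 passed without female control replicate 3 (1.29% of genes called) or without male control replicate 2 or 4 (1.48% for each). Hc, which encodes C5, the source of the C5ar1 ligand, had 22 counts in all, in 7 of the 24 libraries. Mbl1, Mbl2, C8a and C8b had 0 counts, C9 had 2 and C4bp had 1. These are plasma proteins made chiefly in the liver.

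**Figure D5:**
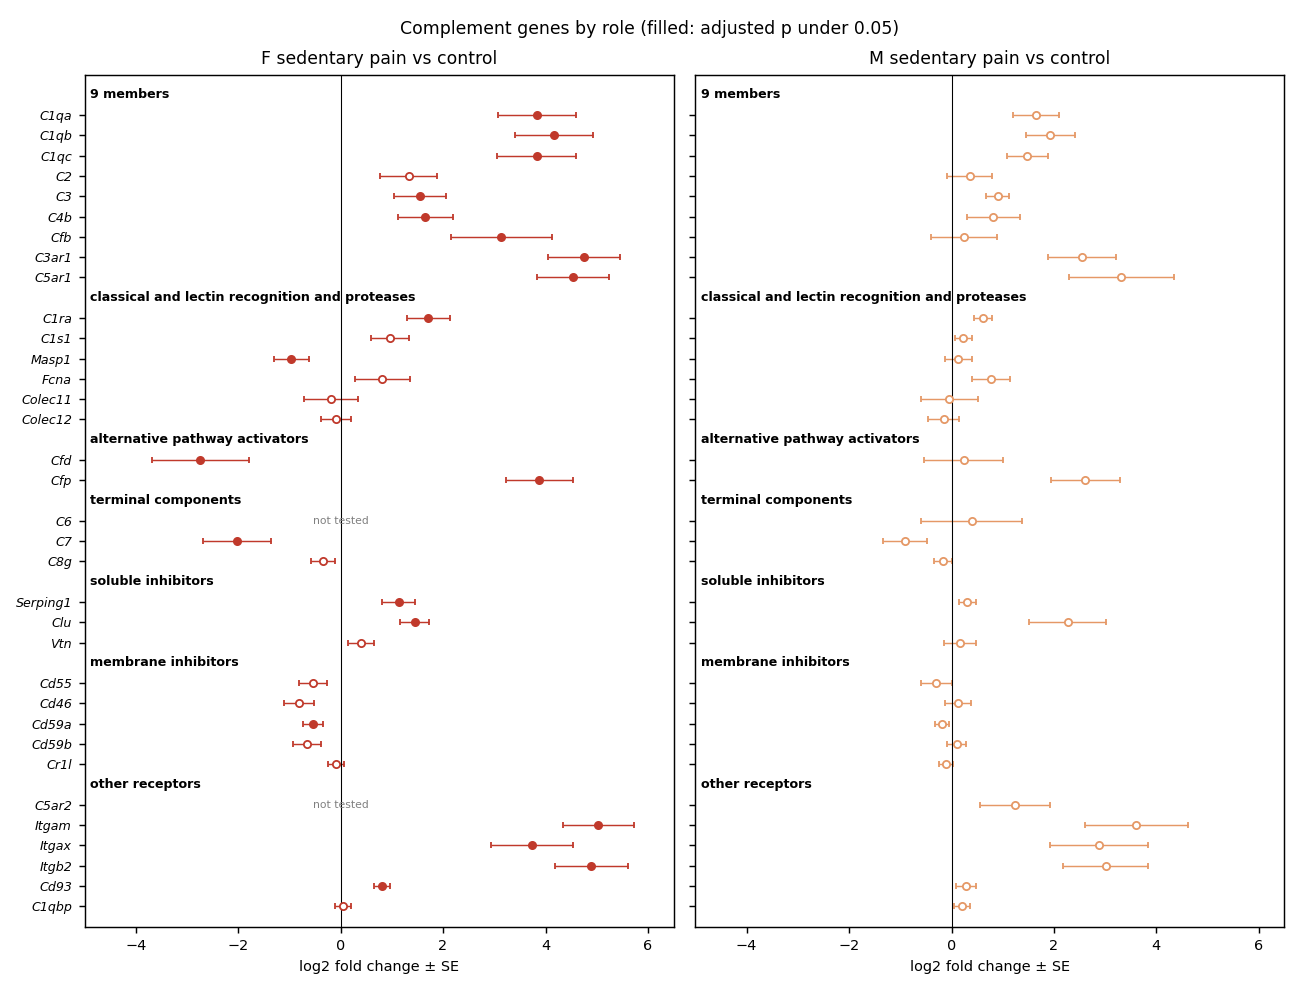
Log2 fold changes (± SE, edgeR) of the 9 members and of other complement genes tested, grouped by role, for sedentary pain against control in females (left) and males (right); filled points have an adjusted p under 0.05. In females the members, Cfp and the receptor chains Itgam, Itgax and Itgb2 lie to the right, and Cfd and C7 to the left; in males no point is filled.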

How the data were processed

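Total RNA sequencing reads had been reduced by the authors to whole-number counts per gene, deposited as 1 table per sample with 54532 Ensembl genes. The submitters' processing notes name HISAT2 2.1.0, Salmon 0.9.1, featureCounts, DESeq2 1.24.0 and the builds mm10 and GRCm38.p6, without the part each played, and strandedness of the counting is not given in the sources used here. Identifiers were matched to symbols (54409 genes) and to GENCODE M21 (54495 genes), and all 120 genes of the lists used were found. The members, the lists of other complement genes and the marker lists were chosen with earlier results of these data known.

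Each sex was fitted in edgeR 4.0.16 (R 4.3.3) as 12 libraries in 3 groups, with TMM scaling, filterByExpr at a minimum count of 10, robust quasi-likelihood tests and Benjamini-Hochberg adjustment over all genes tested. Sex differences and the comparison of the controls came from 1 fit of all 24 libraries. The SE of a log2 fold change is its size divided by the square root of F. Levels are TMM-scaled CPM, and ratios use log2 CPM with a prior count of 2 and exact two-sided permutation tests. Levels per kilobase use the summed exon length of GENCODE M21. Described by name were the 9 members, other complement genes with an adjusted p under 0.05 in any comparison or taken for their role (Cfd, Serping1, Hc, Cr1l and C4a), Csf1r, and the 5 non-members with the steadiest ratio to C1qa, C3 or C5ar1. C1qbp and the genes with next to no counts were named after their values were seen. The values of 1 listed gene are not reported here.

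Alternatives were DESeq2 1.42.0, RLE scaling, no filter, a mean count of at least 50, no robust step, a replicate block, a term for replicates 1 and 2 against 3 and 4, 1 surrogate variable (sva 3.50.0), fits of 8 or 24 libraries, and each library left out. Fits without pairs of libraries were added after seeing the data. The edgeR step was run on simulated data with known changes. That simulation gave every gene an equal spread and had no library standing apart, so it does not bear on calls that rest on such libraries.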

Additional observations from a re-analysis of the deposited data

Results flagged for a closer look

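A library far from the other 3 of its group was looked for by Dixon's gap test on log2 CPM in 23 complement genes and 6 groups. It turned up in 5 of 138 cases, and chance gives about 1 in 20. Among the members, Cfb in female active pain was lowest in replicate 1, at 0.0980 CPM against 0.385 to 0.426 CPM in the other 3 libraries. C5ar1 in male active pain was highest in replicate 2, at 18.5 CPM against 3.36 to 3.97 CPM. Clu, the chaperone that blocks the membrane attack complex, was highest in male sedentary pain in replicate 1, at 572 CPM against 51.9 to 69.2 CPM. In female controls Clu was lowest in replicate 4, at 40.9 CPM against 45.2 to 46.1 CPM. Cr1l, a membrane inhibitor of C3 activation, was lowest in male sedentary pain in replicate 1, at 19.4 CPM against 27.9 to 28.3 CPM.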

How the results depend on the processing

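Counts of members that passed moved by over 1.5 times as follows, and the cause was not tested. In female sedentary pain against control (8 members) there were 5 without the low-count filter, in a fit of only the 8 samples, without sedentary pain replicates 3 and 4, and with replicates 1 and 2 only, 1 with a surrogate variable, and 5 to 9 as each library was left out. In female active against sedentary pain (5 members) there were 0 under these same settings, the surrogate variable included, and without female control replicates 3 and 4, 9 with replicates 3 and 4 only, and 0 to 9 as each library was left out. No share of all genes called is given for the fits without the filter or for some single libraries. Nor is it given for the surrogate variable and the 8 samples in sedentary pain against control. These counts cannot be set against other genes. Where edgeR called 0, DESeq2 called 1 in active pain females, 5 in sedentary pain males and 4 in active pain males, each against control. With replicates 3 and 4 only, 1 member passed in female active pain against control, 1 between the controls, and 5 in the sex difference of either sedentary pain against control or active against sedentary pain. The last count ran from 0 to 5 as each library was left out. No share of all genes is given for the counts of 1 with replicates 3 and 4 only, so these cannot be set against other genes.

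Of the other complement genes, DESeq2 called 3, 4 and 2 in female active, male sedentary and male active pain against control. In female sedentary pain against control (12 genes) 5 passed without sedentary pain replicates 3 and 4, 7 without control replicates 3 and 4, and 7 to 13 as each library was left out. In female active against sedentary pain (4 genes) the counts were 0 and 0 without these pairs and 0 to 6 by single libraries. By single libraries there were also 0 to 5 for the sex difference of active against sedentary pain and 1 to 3 between the controls. Shares of all genes called are given for some of the single libraries and not for all.

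Signs turned for members as follows, as log2 fold changes. With 1 surrogate variable, C2, C3 and C4b had -1.03, -0.34 and -0.34 in female sedentary pain against control. C2 had -0.19 in active pain females, -0.0255 in sedentary pain males and -0.0370 in active pain males. In female active against sedentary pain that fit gave C1qa 0.12, C1qc 0.21, C2 0.84, C3 0.62 and C4b 0.75. Without female sedentary pain replicates 3 and 4, C3 and C4b had 0.42 and 0.41 there. The sex difference of sedentary pain was then 0.15 for C1qa, 0.00276 for C1qc, 0.17 for C2, 0.79 for C3 and 0.56 for C4b, and that of active against sedentary pain -0.34 for C3 and -0.30 for C4b. With replicates 1 and 2 only, C3 and C4b had 0.19 and 0.16 in female active against sedentary pain, Cfb had -1.29 in male sedentary pain, and the sex difference of sedentary pain was 0.20 for C2, 0.0504 for C3 and 0.0308 for C4b. With replicates 3 and 4 only, C2 had -0.10 in female and -0.22 in male active pain. As each library was left out, C2 ran from -0.0425 to 0.39 in female active pain, and Cfb from -0.12 to 0.60 in male sedentary and -0.0336 to 0.60 in male active pain.

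Among the ratios, that of C5ar1 to C3ar1 was -0.000712 in male active against sedentary pain with a prior count of 5. As each library was left out it ran from -0.53 to 0.10 in female sedentary pain, -0.38 to 0.36 in male sedentary pain and -0.19 to 0.29 in male active pain against control, and -0.32 to 0.41 between the male pain groups. Cfb to C2 in males ran from -0.60 to 0.0682, -0.39 to 0.0636 and -0.18 to 0.49 in those comparisons. For active against sedentary pain C1qa to Csf1r ran from -0.0124 to 0.16 in females and -0.0285 to 0.15 in males, and C3 to C1qa in males from -0.27 to 0.25.

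The replicate numbers of the titles are shared by all groups. Deviations of same-numbered libraries correlated at a mean of 0.109 in females and 0.0131 in males (12 pairs each, lowest -0.320 and -0.647), and at -0.0363 and 0.00674 between libraries of other numbers, so pairing by number was kept as an alternative. With a term for replicates 1 and 2 against 3 and 4 the counts were 8 and 5 members in females. With the replicate block 8 and 5 members passed in the female comparisons named above, 8 and 5 of the other complement genes, and 1 between the controls. For the fits with that term or with the block no share of all genes called is given, so these counts cannot be set against other genes. Depth limits Cfb in males (3 to 14 counts a library) and C2. Scaling by RLE left the counts of members called unchanged.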

Other observations

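The make-up of the C1q transcripts was looked at after the levels had been seen, as the share of each chain in the sum of the 3 chains per exon length. C1qb, the B chain, held 39.6 ± 1.29% in control females, 46.4 ± 1.16% in those with sedentary pain and 42.8 ± 2.28% in those with active pain (SD, n = 4). In males the shares were 38.1 ± 1.68% in controls, 43.5 ± 2.87% in sedentary pain and 43.7 ± 1.36% in active pain. All 4 libraries of female sedentary pain, male sedentary pain and male active pain lay above each control of their sex. Each of these 3 differences had p = 0.0286 in an exact two-sided permutation test, the smallest that 70 arrangements can give, and an adjusted p of 0.0571 over 6 tests, which misses the threshold. Female active pain overlapped its controls (exact permutation p = 0.0857, adjusted p = 0.103), and differed from female sedentary pain by -3.62 percentage points (exact permutation p = 0.0571, adjusted p = 0.0857). The male pain groups differed by 0.200 percentage points (exact permutation p = 0.914). C1qa held 37.7 ± 0.911% in female sedentary pain and 42.7 ± 1.53% in female controls (SD, n = 4), a difference with no test of its own.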
